A study of Macaca mulatta with 16 samples.

Results

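The genes described here were the 161 genes of the count table whose symbol starts with ZNF and that lie on chromosome 19 of the rhesus macaque, out of 19425 genes in the table. The rule used symbol and chromosome and no measured value, though the set was picked for description with earlier results of these data known. They are compared with 213 ZNF genes on other chromosomes and with 1039 other genes of chromosome 19. The libraries were made from cardiac tissue of 8 rhesus macaques (Macaca mulatta) of Indian origin, studied in a primate model of pressure overload of the right ventricle, perfused with paraformaldehyde, embedded in paraffin and archived at room temperature for over a year. Each animal gave 1 library per method, so 16 libraries form 8 pairs, and both methods shared the same fixation, storage and rRNA depletion. Method QE used the Qiagen AllPrep DNA/RNA FFPE kit with xylene and extra ethanol washes after deparaffinization. Method BL used the CELLDATA RNAstorm kit with the reagent of the kit for deparaffinization and a longer lysis with protease. The comparison asked whether the extraction method altered the transcript levels measured in archived heart. The heart chamber, age, sex and whether an animal was loaded or a control are not stated for these animals in the labels or the methods.

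Classical zinc fingers are short folds in which a pair of cysteines and a pair of histidines hold a zinc ion, and a run of them reads DNA sequence. Many of these proteins also carry a KRAB domain, which binds TRIM28 (KAP1) and through it the histone methyltransferase SETDB1, so that chromatin at the bound site is silenced. The genes arose largely by tandem duplication, lie in clusters that are dense on chromosome 19 of primates, and many of their proteins repress transposable elements. Their transcripts are low in most tissues, and their zinc finger exons resemble each other.

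Of the 161 genes, 134 (83.2%) were matched to a RefSeq gene of the same symbol and place in Mmul_10. A KRAB A box pattern was found in the proteins of 101 of these and not in those of 33. The number of zinc finger patterns, that is a pair of cysteines 2 residues apart and a pair of histidines 3 to 5 residues apart, with 12 residues between the pairs, ranged from 0 to 27 with a median of 12. Gaps of more than 1 Mb divided the genes into 17 groups along the chromosome. The largest held 43 genes (chr19:55327668-58042944), followed by 24 genes (chr19:51338819-53335960), 22 genes (chr19:35597514-37030418), 16 genes (chr19:43591279-45136956) and 14 genes (chr19:7002151-9515162).

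Likeness between members can bear on their counts, because a read from a shared stretch can be given to more than 1 gene. The coding DNA of 1 zinc finger each is shown for ZNF543 and its neighbour ZNF805, which have 13 finger patterns each and whose closest fingers were identical over 63 of 63 bases, and for ZNF559 and ZNF177, whose closest fingers were identical at 47 of 63 bases (74.6%). Capitals mark the codons of the cysteines and histidines. All 4 are on the plus strand of Mmul_10, at chr19:56947122-56947184, chr19:56868363-56868425, chr19:9137699-9137761 and chr19:9174338-9174400, in this order.
ZNF543 finger 4: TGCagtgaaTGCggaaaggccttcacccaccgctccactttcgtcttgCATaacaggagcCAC
ZNF805 finger 4: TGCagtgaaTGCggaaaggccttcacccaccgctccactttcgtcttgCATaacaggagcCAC
ZNF559 finger 5: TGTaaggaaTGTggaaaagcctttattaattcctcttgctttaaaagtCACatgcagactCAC
ZNF177 finger 6: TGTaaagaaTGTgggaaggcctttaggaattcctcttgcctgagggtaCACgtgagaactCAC

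Of the 134 matched genes, 120 shared no window of 101 bases, the length of a read, with the RefSeq transcripts of another gene, and 14 shared at least 1. Shares count windows found in any other gene, and no gene held more of them than the partner named. ZNF14 shared the most, 59.3% of its windows, with an unnamed gene (LOC114675589) as partner. The share was 19.8% for ZNF607, with LOC719376 as partner. For ZNF497 it was 5.34%, with A1BG as partner, a gene that overlaps ZNF497 on the same strand. For ZNF543 and ZNF805 the shares were 1.73% and 1.22%. A window of 50 bases was shared by 57 genes. The deposited counts are estimates, in which a read that fits several genes is divided, and 77.4% of the members' values lay within 1e-06 of a whole number, against 76.7% of all values. For 74 members every value was whole, and for 12 members, ZNF543, ZNF805, ZNF14, ZNF559 and ZNF177 among them, all 16 values were fractional. A further limit is that 42 members overlapped another gene of the table on the same strand.

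Library totals over all genes were between 14.999 and 25.8 M counts for Method BL, with a median of 17.8 M, and between 19.3 and 25.7 M for Method QE, with a median of 22.6 M. The members held 0.147% to 0.236% of these counts with Method BL (median 0.210%) and 0.129% to 0.183% with Method QE (median 0.157%), so the ranges overlapped. The mean share was 0.200% ± 0.0279 for Method BL and 0.158% ± 0.0180 for Method QE (SD, n = 8 each), and in 7 of 8 animals the Method QE library had the lower share. The mean share of the mitochondrial genome was 28.5% with Method BL and 35.8% with Method QE. Without the mitochondrial genome the members' shares were 0.279% ± 0.0196 and 0.246% ± 0.0148 (SD, n = 8 each), lower with Method QE in 7 of 8 animals. The exception was r15045 with all genes (0.147% and 0.173%) and I30 without the mitochondrial genome (0.2751% and 0.2758%, Method BL first). No test was made of these shares. Between 159 and 161 of the 161 members had at least 1 count in a library, and 157 had at least 1 count in every library. The lowest summed count of any gene in the table was 10, so genes without counts are absent from it. These numbers of members detected therefore say little about how many such genes are expressed in heart.

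The heart muscle label was checked with marker genes. Of 10 cardiomyocyte markers, 8 were in the table (not MYH6 and TNNI3), and they summed to 64387 to 157332 CPM (counts scaled to the size of each library) with Method BL and to 97182 to 165818 CPM with Method QE. Fibroblast markers summed to 639 to 4985 CPM and 662 to 3328 CPM, and adipocyte markers to 1.41 to 111 CPM and 0.848 to 14.3 CPM. Among the 9 cell type lists, the median log2 fold change of the markers tested was furthest from 0 in the mesothelial list, at -1.36 (3 genes), the erythrocyte list, at 1.16 (1 gene, ALAS2; HBB and HBA1 were not found by symbol), and the adipocyte list, at -0.45 (3 genes), and it was 0.01 for cardiomyocytes. Mesothelial markers summed to 3.03 to 17.1 CPM with Method BL and 0.383 to 21.5 CPM with Method QE. No marker of these lists passed the test between methods. The part of these cell types in the results below was not tested, and in bulk tissue fewer cells of a type and less RNA per cell cannot be told apart.

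The members were at low levels in these hearts, as were the genes most like them. The median member tested had a mean of 7.39 CPM over 16 libraries, with the middle 50% of members between 3.84 and 12.9 CPM, against a median of 11.2 CPM over all 14165 genes tested, 9.36 CPM for ZNF genes elsewhere and 7.73 CPM for other genes of chromosome 19. CPM here are scaled with the TMM factors of edgeR. Levels of different genes are compared per kilobase of RefSeq transcript, where the medians were 2.35 CPM per kb for the members, 2.59 for ZNF genes elsewhere, 3.74 for other genes of chromosome 19 and 4.16 for all genes. This scale exists for the 128 tested members with a RefSeq match, and ZNF506, at a mean of 62.7 CPM, is not among them. Among these 128 the highest level was that of ZNF121, a protein of fingers without a KRAB pattern, with 34.9 CPM per kb. It was followed by ZNF358 with 25.4 CPM per kb, ZNF460 with 18.7 CPM per kb and ZNF146, which consists of little but zinc fingers, with 12.8 CPM per kb. ZNF160 had 11.5 CPM per kb, and ZNF177, ZNF581 and ZNF181 followed closely, the last with 9.70 CPM per kb. For 3 members (ZNF260, ZNF470 and ZNF772) the RefSeq transcript was longer than the gene in the deposited table, so their level per kb is too low by an unknown amount.

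The 8 members that were too low to be tested were ZNF556, ZNF878, ZNF257, ZNF726, ZNF829, ZNF296, ZNF530 and ZNF837. Their highest count in any library was 8 to 21. The remaining 153 members entered the test.

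Between the methods, the chromosome 19 zinc finger genes leaned towards lower levels with Method QE, but a single one passed the test. ZNF559, a KRAB zinc finger gene, was lower in the Method QE library of all 8 animals. No member was higher. In edgeR's quasi-likelihood test with animal and method in the model, 1 of 153 members was lower at an adjusted p of 0.05 (Benjamini-Hochberg over 14165 genes), where 1.28% of all genes tested were lower, and 0 members were higher, where 0.854% of all genes were. Over both directions 2.14% of all genes passed. At an unadjusted p of 0.05, 28 members (18.3%) were lower and 0 were higher, against 9.65% and 8.37% of all genes. Below 0 were 112 of 153 members (73.2%), against 49.3% of all genes. The median log2 fold change, Method QE minus Method BL, was -0.10 for the members and 0.00 for all genes tested. In 7 members, ZNF559, ZNF266, ZNF607, ZNF526, ZNF114, ZNF808 and ZNF583, the level was lower with Method QE in all 8 animals (4.58%, against 3.04% of all genes), and in 0 members was it higher in all 8.

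**Figure D1:**
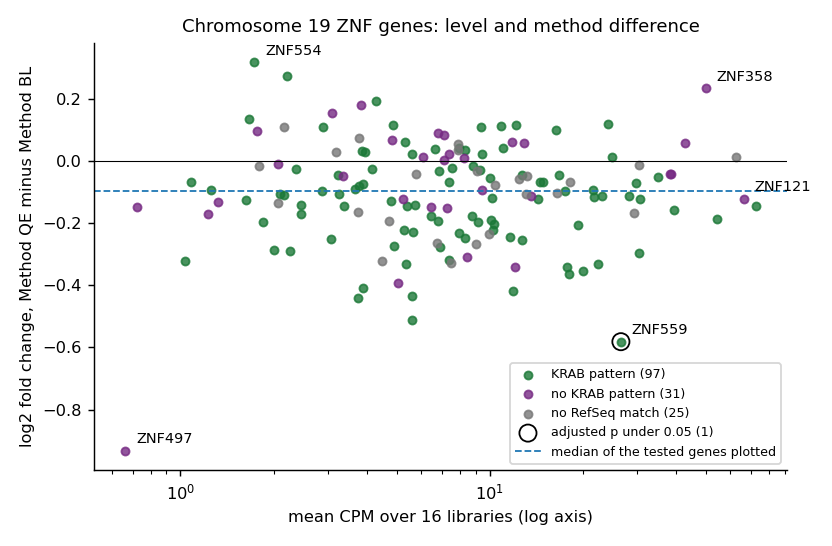
Mean CPM over 16 libraries (log axis) against log2 fold change, Method QE minus Method BL, for the 153 members tested. Points are genes, coloured by KRAB pattern, the ring marks ZNF559, the 1 gene with an adjusted p under 0.05, and the dashed line is the median of -0.10, with 112 points below 0.

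Zinc finger genes elsewhere in the genome had a median close to that of the members, and the other genes of chromosome 19 had a median near 0. For the 204 ZNF genes of other chromosomes that were tested, the median log2 fold change was -0.08, with 67.2% below 0. Of these, 8 were lower (3.92%) and 0 higher. At an unadjusted p of 0.05 in the edgeR test, 35 of them (17.2%) were lower and 6 (2.94%) higher, so the lean was not particular to the members. For the 751 other genes of chromosome 19 the median log2 fold change was -0.00, with 50.2% below 0, 9 lower and 11 higher. Within chromosome 19 the 97 tested members with a KRAB pattern had a median of -0.11, and 78.4% of them were below 0. The 31 members without the pattern had a median of -0.04, with 54.8% below 0, and the 25 members without a RefSeq match had a median of -0.07, with 76.0% below 0. ZNF genes with a KRAB pattern on other chromosomes gave a median of -0.10 over 61 genes. These medians are descriptions, and no difference between the groups was tested.

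**Figure D2:**
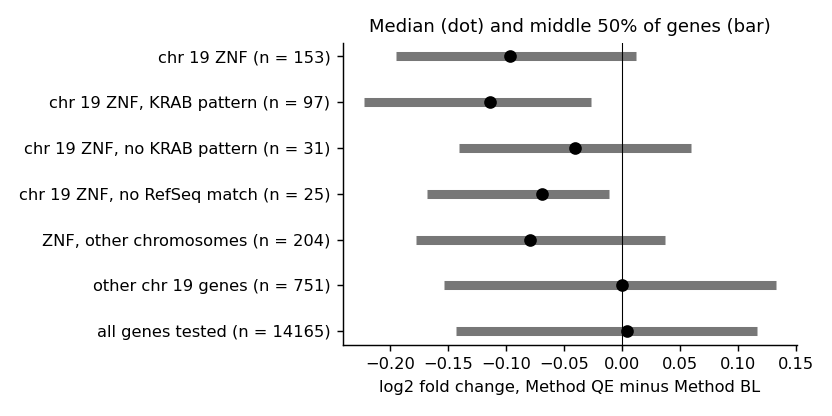
Log2 fold change, Method QE minus Method BL, by group of genes, with the number tested in brackets. Dots are medians and bars span the middle 50% of genes; members with a KRAB pattern lay lowest, at -0.11, and all genes tested at 0.00.

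Length, base composition and the number of fingers were set beside the fold changes. Across 128 members the rank correlation of the log2 fold change was 0.01 with GC content, -0.06 with transcript length and -0.11 with the number of finger patterns. Over 11521 genes it was -0.06 with GC content and -0.25 with length. Genes are not independent replicates, and these correlations are descriptions. The 11 members with 0 to 5 finger patterns had a median log2 fold change of 0.02, a median GC content of 63.7%, and a KRAB pattern in 2 of them. The 35 members with 6 to 10 fingers had a median of -0.12, the 54 with 11 to 15 had -0.10, and the 28 with 16 or more had -0.10, with GC contents of 44.7%, 44.4% and 42.2%. Members with GC content below 42% had a median log2 fold change of -0.06 where all genes of that band had 0.01. From 42% to 50% the medians were -0.12 and 0.02, and from 50% upward they were -0.09 and -0.00.

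ZNF559 (ENSMMUG00000018884, chr19:9115862-9139347, plus strand) has 9 finger patterns and a KRAB pattern. Its level was 25.5 to 37.5 CPM with Method BL (median 32.4 CPM, n = 8) and 15.7 to 26.1 CPM with Method QE (median 21.5 CPM, n = 8). The ranges overlapped only in that the Method BL library of animal r15045 lay below the Method QE libraries of animals 12075 and I30. The mean fell from 31.7 ± 3.92 CPM to 21.4 ± 3.88 CPM (SD, n = 8 each), a log2 fold change of -0.58 (SE 0.07, edgeR adjusted p = 0.00549). With the animal left out of the model the adjusted p was 0.0583.

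ZNF559 and ZNF177 (ENSMMUG00000018883, chr19:9115887-9174905, plus strand) start 25 bases apart, and ZNF177, a second KRAB gene with 7 finger patterns, spans the whole of ZNF559 from there on. Reads from the stretch that both cover can be assigned to either gene.

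ZNF177 was at 10.7 to 37.8 CPM with Method BL (median 22.0 CPM) and at 7.58 to 23.5 CPM with Method QE (median 19.99 CPM), with wide overlap. In 7 of 8 animals the Method QE library was lower, with a log2 fold change of -0.35 (SE 0.09) and an edgeR adjusted p of 0.0689, which missed the threshold. All 16 values of both genes were fractional. In RefSeq neither shared a read-length window with another gene. Of the 50-base windows of ZNF559, 0.616% were found in another gene, with no gene holding more of them than ZNF177. For the ZNF177 transcript used, 0% of the 50-base windows were found in another gene. Which genes the divided reads were shared with is not shown by these values. ZNF121, also in this group of 14 genes, was at 63.8 to 75.05 CPM and 58.3 to 68.6 CPM, with a log2 fold change of -0.12 (SE 0.06, edgeR adjusted p = 0.332).

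**Figure D3:**
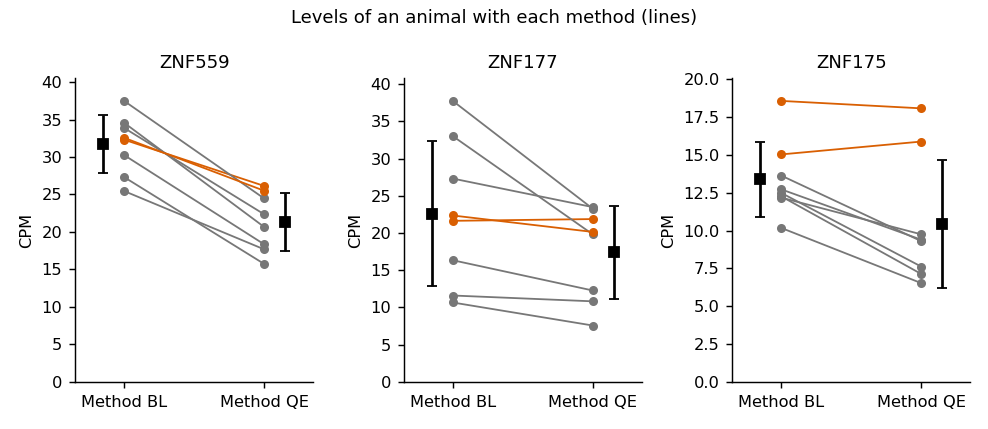
CPM of ZNF559, ZNF177 and ZNF175 with Method BL and Method QE, a line for each animal, with squares and bars for mean and SD (n = 8). Orange lines are animals 12075 and I30; all 8 lines of ZNF559 fall, and those of ZNF175 stay high in these 2 animals.

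Other members with large fold changes had low levels or missed the threshold. ZNF497, which overlaps A1BG on the same strand, had the most negative value, -0.93 (SE 0.44, edgeR adjusted p = 0.280). Its level was 0.835 ± 0.587 CPM with Method BL and 0.493 ± 0.482 CPM with Method QE (SD, n = 8 each). ZNF221, a KRAB gene, was at 4.95 to 8.66 CPM and 3.10 to 7.04 CPM, with a log2 fold change of -0.51 (SE 0.15, edgeR adjusted p = 0.0943). ZNF266, another KRAB gene, was at 3.36 to 4.87 CPM and 2.36 to 4.37 CPM, with -0.44 (SE 0.14, edgeR adjusted p = 0.116). At the other end, ZNF554 had 0.32 (SE 0.22), ZNF552 0.27 (SE 0.20), ZNF358 0.23 (SE 0.12) and ZNF71 0.19 (SE 0.12) on the log2 scale, with edgeR adjusted p from 0.310 to 0.499. ZNF358 was the most abundant of these, at 34.3 to 66.5 CPM with Method BL and 43.6 to 63.6 CPM with Method QE.

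Several further KRAB genes missed the threshold, with edgeR adjusted p from 0.0710 to 0.110. ZNF808, with 23 finger patterns, was at 25.3 to 39.7 CPM with Method BL and 16.1 to 34.6 CPM with Method QE, and was lower in 8 of 8 animals (log2 fold change -0.30, SE 0.08, edgeR adjusted p = 0.0710). All 16 values of ZNF808 were fractional, and it overlaps ZNF701 on the same strand. Of its windows, 1.14% at read length and 10.1% at 50 bases were found in other genes. ZNF841, with 20 patterns, was at 16.6 to 22.0 CPM and 11.5 to 20.8 CPM (-0.34, SE 0.10, adjusted p = 0.0844 with edgeR). ZNF224, a KRAB repressor with 18 patterns, had medians of 24.1 CPM with Method BL and 18.8 CPM with Method QE (-0.33, SE 0.10, adjusted p = 0.110 with edgeR). The ranges of both methods overlapped in each of these genes. ZNF526, which has 13 patterns and no KRAB pattern, was at 9.82 to 15.5 CPM and 8.72 to 13.1 CPM, and was lower in 8 of 8 animals (-0.34, SE 0.09, adjusted p = 0.0761 with edgeR). These genes were named for their small adjusted p, after their values were seen.

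Position along the chromosome was set beside the fold change for the 7 groups with at least 10 members tested. Their median log2 fold changes ran from -0.13 in the 10 genes tested at chr19:11239289-12214474 to -0.05 in the 24 genes at chr19:51338819-53335960. All 7 medians were below 0. The largest group, 41 genes tested towards the end of the chromosome, had a median of -0.07 and a median level of 6.09 CPM, the lowest of the 7.

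The members with a known role described next did not pass the test. ZNF91 and ZNF93 are known in humans to repress retrotransposons. ZNF91, with 27 finger patterns, the most among the 134 genes with a RefSeq match, was at 15.8 to 23.8 CPM with Method BL and 9.86 to 28.4 CPM with Method QE, and its log2 fold change was -0.36 (SE 0.12, edgeR adjusted p = 0.135). ZNF93 was at 11.2 to 14.6 CPM and 8.31 to 17.5 CPM, a log2 fold change of -0.06 (SE 0.09). ZNF274, which in humans binds the 3′ ends of zinc finger genes and brings SETDB1 there, was at 6.87 to 12.2 CPM and 9.04 to 13.5 CPM, with 0.11 (SE 0.11).

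ZNF260, a transcription factor of cardiomyocytes in the rat, was at 5.07 to 9.12 CPM and 5.58 to 9.94 CPM, with a log2 fold change of 0.09 (SE 0.11). ZNF667, known in the rat as a gene induced by myocardial ischaemia, was at 5.36 to 11.2 CPM and 6.60 to 10.6 CPM, with 0.03 (SE 0.12). Of the remainder, ZNF444 had a log2 fold change of -0.15 (SE 0.15), ZNF146 0.06 (SE 0.10) and ZNF581 0.06 (SE 0.09). The differences of all these genes were within about the size of their standard errors except that of ZNF91.

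None of the partners through which KRAB proteins silence chromatin passed the test between methods. Of a list of 31 corepressor genes, 29 were in the table and 28 were tested, with 0 lower and 0 higher, 4 at an unadjusted p under 0.05 (HDAC2, MBD3, CBX1 and SETDB1), 0 called by DESeq2 or limma, and a median log2 fold change of 0.05. Over all genes 2.14% passed, and 9.65% were lower and 8.37% higher at an unadjusted p under 0.05, so the list did not stand out from the background. TRIM28 was at 25.8 to 32.5 CPM with Method BL and 29.0 to 33.3 CPM with Method QE, with means of 28.9 ± 2.38 and 31.6 ± 1.52 CPM (SD, n = 8 each) and an edgeR adjusted p of 0.311. SETDB1 was at 15.7 to 18.7 CPM and 13.2 to 17.8 CPM, with means of 17.3 ± 1.11 and 15.4 ± 1.44 CPM (SD, n = 8 each) and an edgeR adjusted p of 0.274. The differences of both genes missed the threshold.

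The lean towards lower levels was not shared by every animal. The median log2 difference of the 153 members, Method QE minus Method BL, was -0.17 in animals r15045 and 16116, -0.16 in 16010, -0.15 in 2740 and rh2957, and -0.11 in r15089. In animals 12075 and I30 it was 0.06 and 0.08. ZNF genes of other chromosomes had the same 2 animals above 0, at 0.04 and 0.07, while the medians of all genes tested lay between -0.02 and 0.02 in every animal. Animals 12075 and I30 are those whose Method QE libraries have names that begin with 2-, a mark that neither the labels nor the methods explain.

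Without these 2 animals, an alternative chosen after seeing the data, 4 members were lower (ZNF175, ZNF559, ZNF841 and ZNF91), where 0.796% of all genes were, and the median log2 fold change of the members was -0.15.

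**Figure D4:**
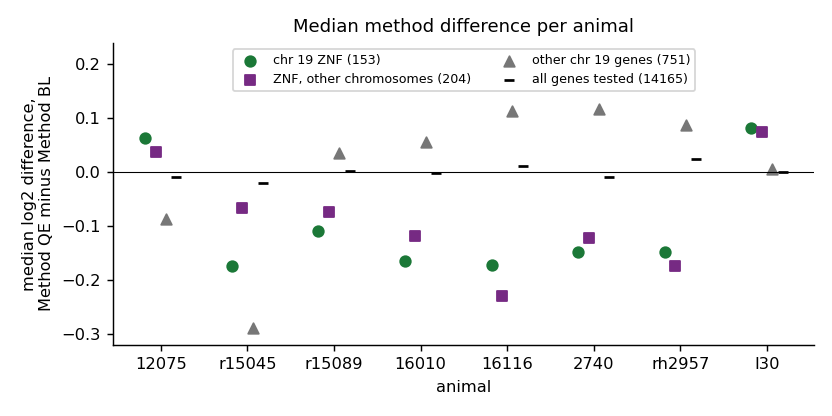
Median log2 difference between Method QE and Method BL per animal for the members (153 genes), ZNF genes of other chromosomes (204), other genes of chromosome 19 (751) and all genes tested (14165). Both groups of zinc finger genes lie above 0 in animals 12075 and I30 only, where the members reach 0.06 and 0.08.

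The levels of ZNF175, a KRAB gene with 13 finger patterns and the member nearest to the threshold after ZNF559, show this split in part. With Method BL it was at 10.2 to 18.6 CPM (median 12.6 CPM) and with Method QE at 6.52 to 18.1 CPM (median 9.34 CPM). In animals 12075 and I30 the Method QE libraries had 15.9 and 18.1 CPM, and in the other 6 they had at most 9.75 CPM. Over all 8 animals the log2 fold change was -0.42 (SE 0.11, edgeR adjusted p = 0.0593), lower in 7 of 8. It passed without animal 12075, as did ZNF91, so 3 members were lower there, where 0.83% of all genes were.

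More members differed between animals than between methods, as was so for all genes tested (31.5% and 2.14%). The tests were unlike, with 7 animal terms against a single method term. Heart chamber and treatment of each animal are not stated, so they cannot be told apart from other differences between animals. With both libraries of an animal as its replicates and method in the model, 26 of 153 members (17.0%) differed between animals (edgeR, F test of the 7 animal terms, adjusted over all genes), where 31.5% of all genes tested did. Of ZNF genes on other chromosomes 15.2% differed, and of other genes on chromosome 19 28.4%. By class the members were 18 of 97 with a KRAB pattern, 2 of 31 without and 6 of 25 without a RefSeq match. On other chromosomes the order was the reverse, with 4 of 61 ZNF genes with a KRAB pattern (6.56%) and 23 of 135 without (17.0%). The group of 24 genes at chr19:51338819-53335960 held 7 of the 26, and the largest group 4 of 41 tested. The count fell to 12 without animal 16010 (23.6% of all genes), to 17 without r15089 (26% of all genes), to 17 without 2740 (27.6% of all genes) and to 13 without animals 12075 and I30 (22.5% of all genes).

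ZNF506 (ENSMMUG00000028833, chr19:19390887-19422185, minus strand) had the smallest adjusted p, 1.27e-05 with edgeR. It had 103 and 129 CPM in animal rh2957 with Method BL and Method QE, and 91.1 and 108 CPM in I30. In r15089 it had 66.6 and 71.3 CPM, in 12075 60.8 and 66.7 CPM, and in 16116 54.0 and 40.9 CPM. The remaining animals, r15045, 16010 and 2740, lay between 33.4 and 37.4 CPM. Between methods its log2 fold change was 0.01 (SE 0.08), and rh2957 and I30 were the highest animals with both. It had no RefSeq match, and 14 of its 16 values were fractional.

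ZNF534 (chr19:52138758-52157684, plus strand) was lowest in animal 2740, at 0.871 and 1.14 CPM, and in 16010, at 1.98 and 1.65 CPM, and lay between 2.65 and 6.68 CPM elsewhere (edgeR adjusted p = 5.97e-04). ZNF611 (chr19:52389861-52417306, minus strand) was at 17.8 and 17.1 CPM in animal rh2957 and at 25.6 to 42.9 CPM in the others (edgeR adjusted p = 0.00152). Without animal rh2957 its adjusted p was 0.106. All 16 values of ZNF611 were fractional.

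ZNF304 (chr19:56969440-56977519, plus strand), a KRAB gene with 15 finger patterns, was also lowest in rh2957, at 15.3 and 15.04 CPM, and highest in r15089, at 30.6 and 32.1 CPM (edgeR adjusted p = 0.00332, and 0.0384 without rh2957). ZNF331 (chr19:53294167-53335960, plus strand), which is imprinted in humans, was at 29.8 and 25.5 CPM in animal 16010 and at 10.6 to 20.4 CPM in the others (edgeR adjusted p = 0.00851, and 0.258 without 16010). ZNF177, described above, differed with an adjusted p of 1.71e-04, from 10.7 and 7.58 CPM in rh2957 to 37.8 and 23.3 CPM in 16010. Animal rh2957 was thus lowest for 3 of these genes and highest for ZNF506.

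ZNF175 and ZNF382, a KRAB repressor with 9 finger patterns, completed the 8 members with the smallest adjusted p for animal (0.00929 and 0.0109 with edgeR). The adjusted p of ZNF175 was 0.0593 without I30, and that of ZNF382, which was lowest in rh2957 with both methods, was 0.0547 without that animal. At the other extreme, ZNF121 varied least between animals, with an SD of animal means of 0.04 on the log2 scale against a median of 0.22 over the members tested (adjusted p for animal 0.973). ZNF121 also had the highest level per kb among the 128 members with a RefSeq match.

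The other 18 members that differed between animals had adjusted p from 0.0113 to 0.0490. ZNF208, a gene of the same group as ZNF506, was at 24.7 and 24.3 CPM in animal 12075 and at 10.7 and 11.4 CPM in rh2957. ZNF560, a low KRAB gene, was at 3.10 and 2.74 CPM in r15089 and at 0.275 to 1.59 CPM elsewhere. ZNF536, a gene without a KRAB pattern, was highest with Method BL in 2740 and 16010, at 9.74 and 9.34 CPM, and in 16010 with Method QE, at 7.95 CPM. ZNF14, at 0.989 and 1.01 CPM in 16116, is the gene with 59.3% of its read-length windows found in other genes. ZNF559 was also among the 18, with an adjusted p for animal of 0.0430. These examples were named after their values were seen.

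**Figure D5:**
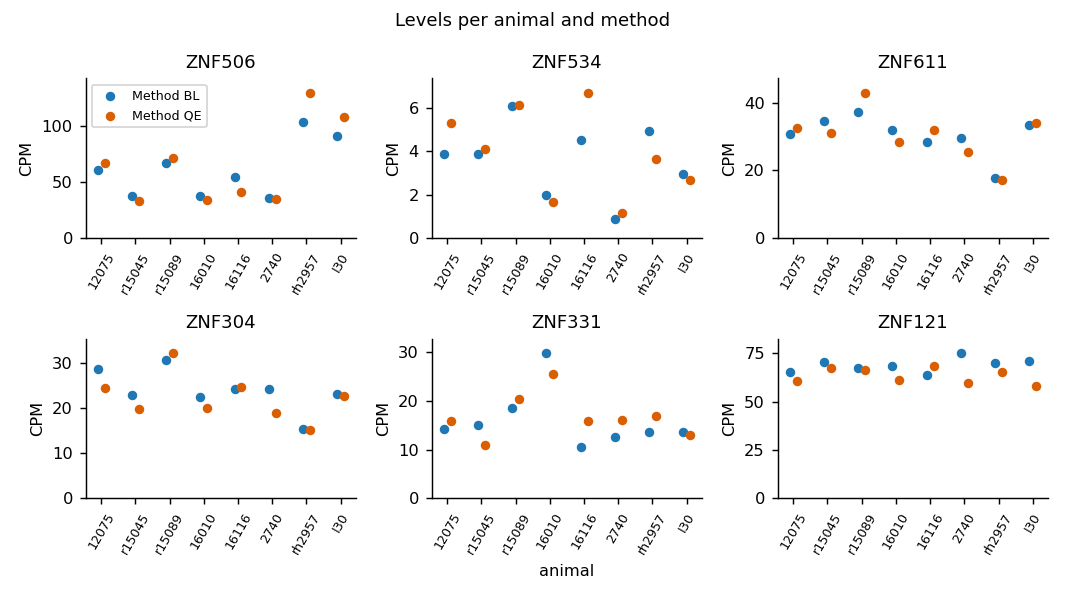
CPM of 6 members in each animal (x axis) with Method BL (blue) and Method QE (orange), each y axis from 0. ZNF506 is highest in rh2957 and I30, ZNF611 and ZNF304 are lowest in rh2957, ZNF331 is highest in 16010, and ZNF121 stays between 58.3 and 75.05 CPM.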

How the data were processed

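Total RNA was depleted of rRNA and sequenced as stranded paired-end libraries. Per the submitters' processing notes and the methods, the authors used STAR 2.7.8a, Partek and the genome Mmul_10, with the E/M algorithm of Partek and Ensembl transcripts for estimated counts. Estimated counts were deposited without normalization, and 1 record broken over 3 lines was rejoined. Whether counting used strand is not given in the sources used here. Since the extraction label gives a single kit, that of Method QE, in every sample, groups were taken from titles and method labels. Pairs were formed from the animal identifiers in library names, since the replicate numbers in the labels run in another order in each method.

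Estimated counts were rounded and tested in edgeR 4.0.16 (R 4.3.3) after filterByExpr and TMM, with the quasi-likelihood F test of method, or of the 7 animal terms, with animal and method as terms. Adjustment was by Benjamini-Hochberg over 14165 genes (threshold 0.05). Standard errors were obtained as fold change over the root of F, and a prior count of 2 was used for log2 CPM. Transcript lengths, GC contents, finger and KRAB patterns and sequences came from RefSeq on Mmul_10. DESeq2 1.42.0, limma 3.58.1 (voom), other scalings and filters, offsets for length and GC content, subsets of animals and other blocks were alternatives. Scripts were tested on simulated data. The sequence of 1 region is not reported here. The members and lists were chosen with earlier results of these data known. Members named are those that passed the method test, the 4 with the most positive and the 4 with the most negative fold change, the 8 with the highest level per kb, the 8 with the smallest adjusted p for animal, and a fixed set, most with a known role, that included ZNF559 (ZNF580 of this set was not among the members); others were named after their values were seen.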

Additional observations from a re-analysis of the deposited data

Results flagged for a closer look

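Among the 28 members named by rule, 3 of 56 groups of 8 libraries (each gene with each method) had a library far from the others by Dixon's test. For genes chosen without regard to their values, that test flags about 1 group in 20 by chance. Some of these genes, ZNF611 and ZNF331 among them, were named for a small adjusted p between animals. That choice used the same values, so the rate of 1 in 20 does not hold for it. ZNF611 was at 17.8 CPM in animal rh2957 with Method BL, with the nearest library at 28.3 CPM, and the Method QE library of that animal was also the lowest, at 17.1 CPM. ZNF331 was at 29.8 CPM in animal 16010 with Method BL, with the nearest at 18.6 CPM, and at 25.5 CPM in its Method QE library. ZNF444 was at 13.8 CPM in animal r15045 with Method BL, with the nearest at 8.22 CPM; the share of the mitochondrial genome was 39.3% in that library, the highest of the Method BL libraries, and its part in the value was not tested.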

How the results depend on the processing

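The number of members lower with Method QE was 0 with no replicate block (14 at an unadjusted p under 0.05; 0.0141% of all genes passed), 0 with a replicate block by the number in the labels (15; 0.00706%) and 0 in the 3 animals whose Method BL name ends in R (8; 0%), fits in which few genes of any kind passed, and ZNF559 kept a negative value in each (log2 -0.57, -0.58 and -0.62). It was 2 with upper quartile scaling (1.8% of all genes) and 4 with DESeq2 (2.42% of all genes), namely ZNF175, ZNF177, ZNF559 and ZNF808. It was 4 without animals 12075 and I30 (0.796% of all genes). With each animal left out in turn it was 3 without 12075 (0.83% of all genes) and 1 in each other fit (0.155% to 1.29% of all genes). The number higher was 0 under every alternative run. The members' median log2 fold change stayed below 0 in all 22 alternatives, from -0.15 (without 12075 and I30) to -0.07 (the 5 animals whose Method BL name ends in B). Members that differed between animals numbered 12 to 24 with each animal left out (23.6% to 34.2% of all genes) and 13 without 12075 and I30 (22.5%). They numbered 14 in the B animals (24.7% of all genes), 4 in the R animals (5.26%) and 18 with limma (25.7%). Of the corepressor genes 1 (MBD3, adjusted p = 0.0409 with edgeR) passed, as higher, with offsets for length and GC content. In that fit 3 of 11459 genes (0.0262%) were higher. For the 28 members named by rule, 608 fold changes were obtained under the alternatives. Of these, 575 kept their direction and side of the threshold, 7 passed, 3 no longer passed and 23 had the other sign. Members named after their values were seen are not in this count. Among those, ZNF808 passed with DESeq2, and ZNF841 passed without animals 12075 and I30. Those 23 were in 8 genes with a main log2 fold change within 0.09 of 0, and their adjusted p was 0.755 or more. With each animal left out the log2 fold change ran from -0.032 to 0.071 in ZNF506, -0.043 to 0.017 in ZNF611, -0.11 to 0.00063 in ZNF93, -0.024 to 0.12 in ZNF667, -0.0053 to 0.15 in ZNF534 and -0.015 to 0.13 in ZNF146. ZNF506 was at -0.011 with upper quartile scaling, -0.037 in the B animals and -0.047 without 12075 and I30. ZNF611 was at 0.00087 with no replicate block and 0.0033 with no filter, ZNF260 at -0.051 in the B animals, and ZNF146 at -0.067 without 12075 and I30. In the R animals ZNF581 was at -0.10, ZNF534 at -0.11 and ZNF667 at -0.15. The causes were not tested. Pairing by animal rests on the names of the libraries. With 8 animals and a median SE of 0.12 for the members on the log2 scale, small differences of single genes were not detectable.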
